A study of Saccharomyces paradoxus and Saccharomyces cerevisiae and Nakaseomyces glabratus with 58 samples.

Results

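ARO9, ARO10 and ARO80 carry out and control the breakdown of phenylalanine, tyrosine and tryptophan in budding yeast. They were followed through 6 yeast species whose SFP1 gene had been deleted or tagged. In S. cerevisiae Sfp1 is a zinc finger protein that activates transcription of ribosomal genes. The set holds 22 rows of the 36369 rows in the 6 count tables: ARO9 (YHR137W), ARO10 (YDR380W) and ARO80 (YDR421W) in S. cerevisiae, and in the other species every row that the deposited orthology table places in the orthogroup of one of them. That gave 4 rows each in S. paradoxus, C. glabrata, N. castellii and K. lactis, and 3 in S. pombe. ARO9 shares its orthogroup with ARO8 (YGL202W), so rows of the other species in that group are called ARO9/ARO8 and not given either name. Of the 22 rows, 19 passed the filter on low counts. The genes were chosen by their log2 fold changes in the S. cerevisiae deletion against wild type, so the values of that comparison are a description without a test.

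In S. cerevisiae the aromatic amino acids are broken down through the Ehrlich pathway. Aro9 and its relative Aro8 are aromatic aminotransferases that turn the amino acid into a keto acid, Aro10 is a decarboxylase that turns the keto acid into an aldehyde, and dehydrogenases then make a fusel alcohol or a fusel acid. Aro80 is a zinc cluster transcription factor that activates ARO9 and ARO10 when aromatic amino acids are present. Aro8 also works in the synthesis of phenylalanine and tyrosine.

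Polyadenylated RNA was sequenced from yeast cultures in a medium the labels abbreviate BMW, in 19 groups of 3 libraries lettered A to C. At log phase the groups were delta sfp1, HA-tagged Sfp1 and wild type in S. cerevisiae; delta sfp1 and wild type in S. paradoxus, K. lactis and S. pombe; delta CAGL0D00682g, delta CAGL0M09955g and wild type in C. glabrata; and delta Scas551.1, delta Scas719.24 and wild type in N. castellii, where both deletions count as Sfp1 mutants per the labels. S. paradoxus delta sfp1 and wild type were also taken 30 and 60 min into lag phase, after glucose had been returned. Totals ran from 1360921 to 3447865 counts per library, apart from S. pombe (712954 to 2252066) and the S. paradoxus lag phase (34080 in delta sfp1 replicate A at 30 min, 418291 to 640289 in the others). The labels give no separate cultures, so p-values measure the spread between libraries only, which may be technical.

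3 facts of the whole libraries bear on what follows. The deleted gene had between 0 and 3 counts in every deletion library except in S. pombe, where sfp1 (SPAC16.05c) averaged 40.5 ± 8.73 CPM in the libraries labelled deletion and 75.6 ± 13.5 CPM in wild type (SD, n = 3 each), so these are called libraries labelled deletion. CPM are edgeR's counts scaled by library size and TMM factors. In S. paradoxus the receptor genes of the mating types differed at log phase. STE2, the a-type receptor gene, averaged 13.8 CPM in delta sfp1 and 621 CPM in wild type, and STE3, the alpha-type receptor gene, 473 CPM in delta sfp1 and 5.81 CPM in wild type; all 12 lag libraries had the alpha-type pattern. Genes of chromosome II stood higher as a whole in the deletions of both Saccharomyces species, with a median log2 fold change of 0.93 in S. cerevisiae and of 0.70, 0.64 and 0.59 in S. paradoxus at log phase, 30 min and 60 min.

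The chromosome of an S. paradoxus gene was read from the number in its ID, which was the chromosome of the S. cerevisiae ortholog for 3369 of 3385 one-to-one pairs. None of the members lies on chromosome II. Chromosome IV, which holds ARO10 and ARO80, had a median of -0.04 in S. cerevisiae and -0.08 in S. paradoxus at log phase; chromosome VIII, which holds ARO9, had -0.07 and -0.12; chromosome VII, which holds ARO8, had -0.03 and -0.12. Refitted without chromosome II genes, the S. cerevisiae log2 fold changes were 2.93 for ARO10 (YDR380W) and 2.35 for ARO9 (YHR137W).

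**Figure D1:**
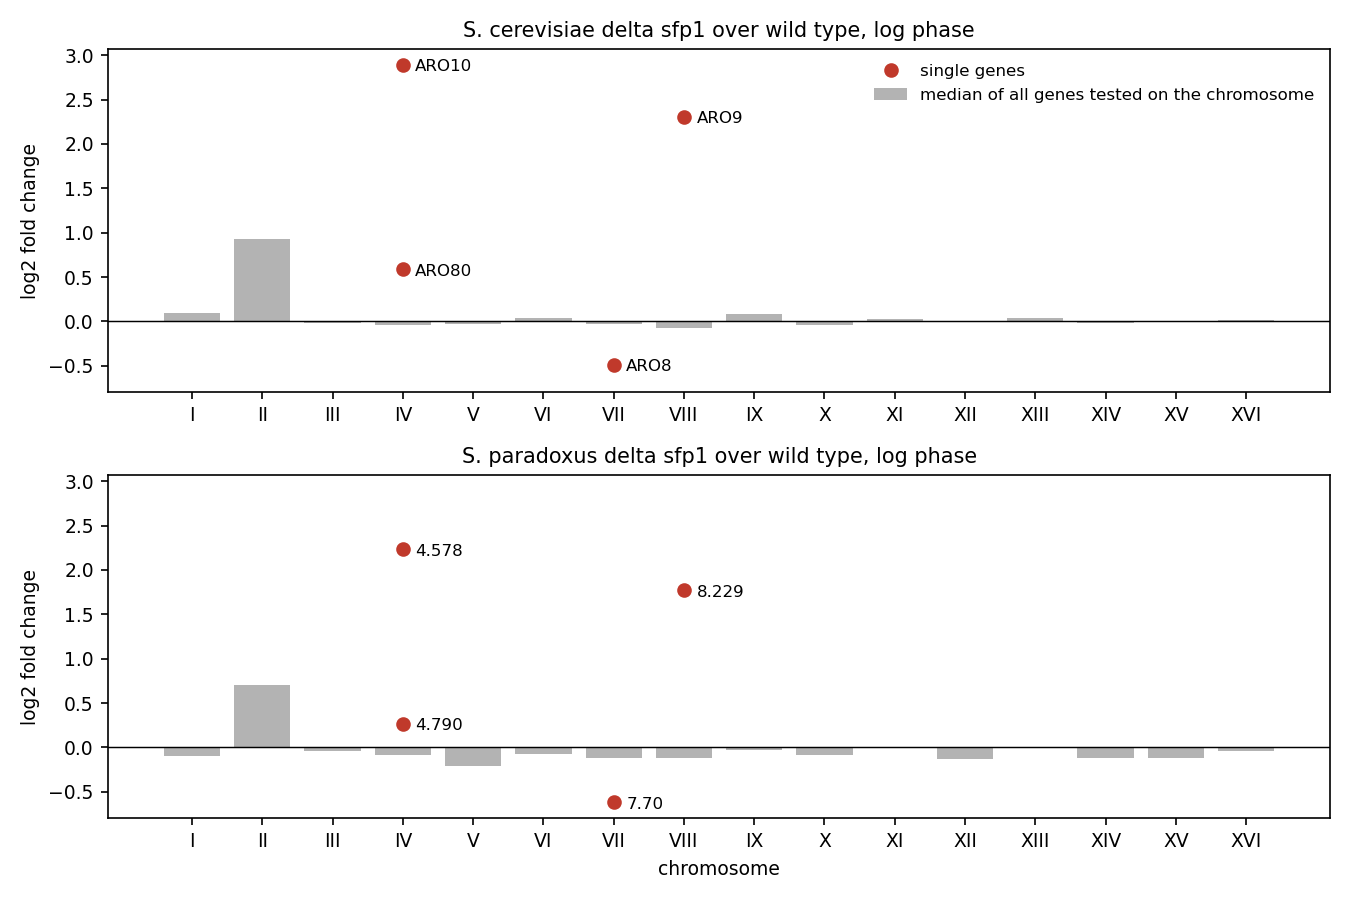
Median log2 fold change (delta sfp1 over wild type, log phase) of the genes tested on each chromosome as grey bars, and single genes as red points, in S. cerevisiae (top) and S. paradoxus (bottom, ID numbers without prefix). Chromosome II stands at 0.93 and 0.70, while chromosomes IV, VII and VIII, which hold the members and ARO8, stand between -0.12 and -0.03.

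The S. cerevisiae genes lie on the plus strand of build R64, to which they were matched by locus name: ARO9 at chrVIII:375709-377250, ARO10 at chrIV:1234218-1236125 and ARO80 at chrIV:1312040-1314892. Because the 3 genes moved together in S. cerevisiae, the 300 bases before each start codon were searched on both strands for CCGNNNNNNNCCG, the spaced CCG triplets of the site Aro80 is known to bind. The stretches with matches are shown with 15 bases on either side, from RefSeq R64 and with matches in capitals. The stretch of ARO9 is chrVIII:375463-375591, that of ARO10 chrIV:1233946-1233988 and that of ARO80 chrIV:1311883-1311925, all on the plus strand.
ARO9: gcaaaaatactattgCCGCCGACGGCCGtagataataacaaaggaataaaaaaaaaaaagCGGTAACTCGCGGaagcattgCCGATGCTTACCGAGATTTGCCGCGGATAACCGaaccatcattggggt
ARO10: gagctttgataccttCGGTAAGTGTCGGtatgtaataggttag
ARO80: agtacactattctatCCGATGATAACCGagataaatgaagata

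ARO9 held 5 matches, 3 of which overlap end to end in 1 run of capitals, and ARO10 and ARO80 held 1 each. Of 6001 S. cerevisiae windows of the same length, 2.72% held at least 1 match and 0.267% held 2 or more. The window of ARO8 held none. GATAAG, a longer form of the site of GATA factors of nitrogen control, had no match in the windows of ARO9, ARO10 and ARO80. It had 1 in that of ARO8, against 14.7% of all windows with a match. The shorter run GATAA stands in the stretches of ARO9 and ARO80 shown above and was not counted. AAAATTTT, the letters of the Sfp1 motif, matched in none of these 4 windows and in 9.42% of all windows. A match here is a run of letters only, and its absence says nothing of binding elsewhere.

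In the S. cerevisiae deletion ARO10 and ARO9 stood among the highest gene-wise changes, ARO80 was modestly higher, and ARO8, the sister of ARO9, was lower. ARO10 read 557, 594 and 587 CPM in delta sfp1 libraries A to C, against 78.2, 69.9 and 86.6 CPM in wild type. The lowest deletion library was thus more than 6 times the highest wild type one. The log2 fold change was 2.89 ± 0.08 (SE; 7.42-fold), the 13th highest of 5826 genes tested.

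ARO9 read 451, 517 and 512 CPM in delta sfp1, against 90.6, 96.2 and 109 CPM in wild type. Its log2 fold change was 2.31 ± 0.08, the 26th highest, and the groups were far apart. ARO80 read 69.6, 74.8 and 72.2 CPM in delta sfp1 and 53.4, 43.7 and 49.4 CPM in wild type, a log2 fold change of 0.59 ± 0.09. These groups also did not overlap, but the gap was small beside those of the enzyme genes. ARO8 read 325, 342 and 339 CPM in delta sfp1 and 457, 474 and 475 CPM in wild type, a log2 fold change of -0.49 ± 0.05. Across all genes 52.1% were called in this comparison 26% were called higher and 26% lower, and nothing is read from the members' share.

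Per kilobase of gene the order of the 4 genes differed between the strains. In delta sfp1, ARO9 stood at 320 ± 23.7 CPM per kb, ARO10 at 304 ± 10.3, ARO8 at 223 ± 6.01 and ARO80 at 25.3 ± 0.90 (SD, n = 3). The first pair did not differ beyond its spread, and both were above ARO8. In wild type, ARO8 stood at 312 ± 6.81 CPM per kb, ARO9 at 64.0 ± 6.26, ARO10 at 41.0 ± 4.38 and ARO80 at 17.1 ± 1.72, with no overlap between neighbours. ARO8 was thus the more abundant of the 2 aminotransferase messages in wild type, and ARO9 in the deletion.

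In the strain with HA-tagged Sfp1 no member passed the test. ARO10 read 72.4, 77.5 and 84.8 CPM in that strain, against 78.2, 69.9 and 86.6 CPM in wild type, a log2 fold change of -0.00 ± 0.10 with an edgeR adjusted p of 1.0. ARO9 had a log2 fold change of -0.12 ± 0.10 and ARO80 of 0.18 ± 0.10, with adjusted p = 0.927 and 0.891. Of 5826 genes 0% were called by edgeR in this comparison; 318 had an unadjusted p under 0.05, and DESeq2 called 2. ARO80 libraries of the tagged strain, between 53.7 and 55.2 CPM, lay just above the highest wild type library at 53.4 CPM.

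**Figure D2:**
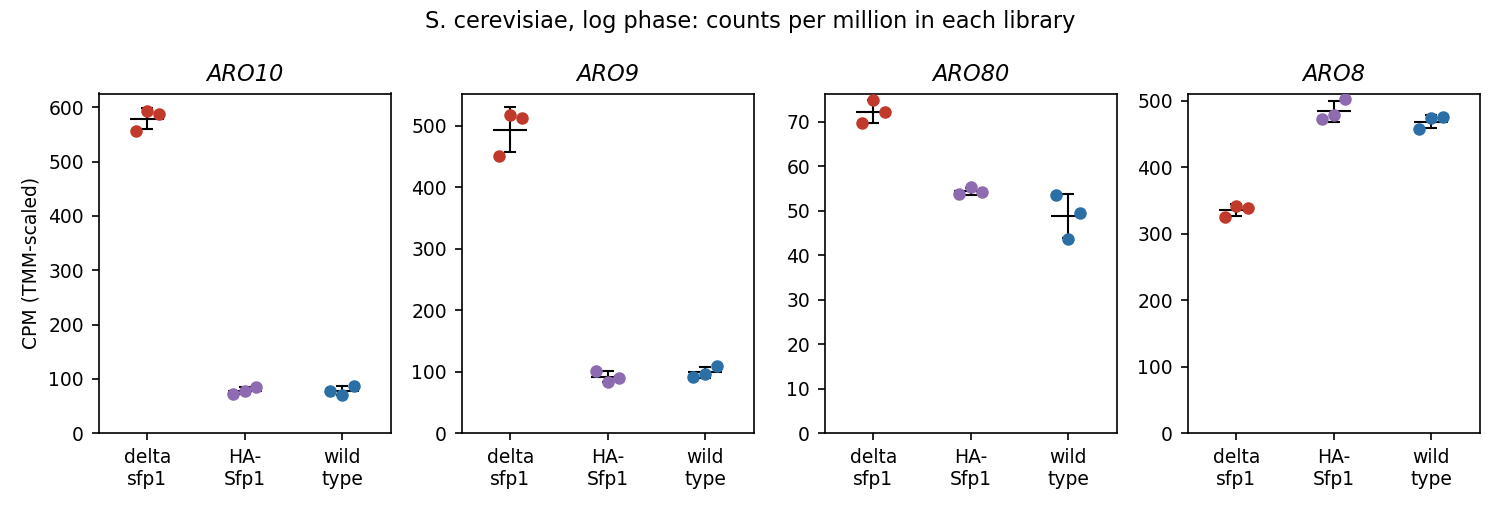
CPM in each S. cerevisiae log phase library (points) for ARO10, ARO9, ARO80 and ARO8, by strain, with mean and SD (bars, n = 3). The deletion libraries of ARO10 start at 557 CPM, while the highest value in the other strains is 86.6 CPM; ARO8 runs the other way.

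The authors' deposited table of microarray log ratios gives another readout of the same genes, at times named in its columns, with the log base and the number of arrays not stated. The ratios were turned to altered strain over wild type, since the deleted gene was far on the wild type side in each column. In the authors' deposited table the ARO10 ratios of the columns named BY were -0.23, 2.45, 4.31 and 3.6 at times 15, 30, 60 and 90. ARO10 was thus slightly below wild type at time 15 and at or above 99.6% of features from time 30 on. For ARO9 the authors' deposited table has 0.22, 1.31, 2.99 and 2.38 at the same times, and for ARO80 0.55, 0.55, 0.83 and 0.52. ARO8 stood at 0.67 and then between -0.32 and -0.27 in the authors' deposited table.

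In the columns named RM, ARO9 had the highest ratios of the 3 genes and ARO80 the lowest. In the authors' deposited table ARO9 had 3.95, 5.31 and 3.56 at times 30, 60 and 90, ARO10 3.36, 4.77 and 3.0, and ARO80 0.92, 1.26 and 0.58. ARO8 had -0.68, -0.72 and -0.33 there. In both sets of columns the highest ratio of ARO9 and of ARO10 came at time 60. These are single values per gene and time, without an error.

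In S. paradoxus, the closest relative, the ARO10 ortholog and 1 of the 2 ARO9/ARO8 genes rose in the deletion at all 3 stages, and the other ARO9/ARO8 gene fell at log phase and 30 min. The background was high: 57.4% of 4908 genes were called at log phase, 52.9% at 30 min and 50.8% at 60 min, with 24.8%, 28.3% and 25.7% called higher and 32.6%, 24.6% and 25% called lower. Against that background 2, 3 and 2 of the 4 member rows rose and 1, 1 and 0 fell.

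Spar_4.578, the ARO10 ortholog, read 712, 613 and 644 CPM in delta sfp1 at log phase, against 107, 200 and 103 CPM in wild type. Wild type library B stood above the other wild type libraries, and the groups did not overlap. The log2 fold change was 2.23 ± 0.15 (adjusted p = 1.4e-14), and 2.64 without wild type library B. At 30 min it read 189, 326 and 271 CPM in delta sfp1, against 60.3, 45.8 and 45.7 CPM in wild type, a log2 fold change of 2.53 ± 0.26 (adjusted p = 6.0e-10). The first of these deletion values rests on 7 counts, in the shallow library A. At 60 min the values were 309, 280 and 298 CPM in delta sfp1 and 145, 137 and 80.0 CPM in wild type, a log2 fold change of 1.27 ± 0.20 (adjusted p = 1.7e-06). All 3 stages kept the deletion above wild type with no overlap.

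The deletion effect on Spar_4.578 was smaller at 60 min than at either other stage; such differences were called for 25.2% of genes against log phase and 15.3% against 30 min. The difference was -0.96 ± 0.25 on the log2 scale against log phase (adjusted p = 0.0044) and -1.26 ± 0.34 against 30 min (adjusted p = 0.0093), while 30 min and log phase differed by 0.30 ± 0.32 (adjusted p = 0.51). Within wild type, Spar_4.578 fell by 1.48 from log phase to 30 min (SE 0.25, adjusted p = 5.5e-06) and was 1.28 ± 0.28 higher at 60 than at 30 min (adjusted p = 3.9e-04), where 55.9% and 36.6% of genes were called. Within delta sfp1 it was lower at both lag times than at log phase, with log2 fold changes of -1.18 ± 0.18 at 30 min and -1.15 ± 0.15 at 60 min, where 55.8% and 52.6% of genes were called. The wild type return by 60 min was not seen in delta sfp1, where 60 against 30 min gave 0.03 ± 0.19 (adjusted p = 0.94; 22.7% of genes called). Log and lag libraries of wild type also differed in mating type, whose part in these differences was not tested.

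Spar_8.229, of the ARO9/ARO8 group, read 533, 454 and 443 CPM in delta sfp1 at log phase, against 115, 199 and 95.2 CPM in wild type. Wild type library B was again the high one, and the groups did not overlap. The log2 fold change was 1.77 ± 0.14 (adjusted p = 6.8e-13). It was 0.97 ± 0.18 at 30 min, with means of 424 and 215 CPM in delta sfp1 and wild type, and 0.95 ± 0.17 at 60 min, with means of 305 and 158 CPM (adjusted p = 3.8e-05 and 2.7e-05). The effect was smaller than at log phase by -0.80 ± 0.23 at 30 min and by -0.82 ± 0.23 at 60 min (adjusted p = 0.0071 and 0.0067). At these times 31.8% and 25.2% of genes differed from log phase. Only at log phase did delta sfp1 and wild type differ in mating type, whose part in these differences was not tested.

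Spar_7.70, the other gene of that group, went the other way. It read 218, 218 and 199 CPM in delta sfp1 at log phase, against 331, 343 and 299 CPM in wild type, a log2 fold change of -0.62 ± 0.09 (adjusted p = 5.1e-07). With library size alone as the scaling it was -0.12 and did not pass. At 30 min it read 216, 385 and 372 CPM in delta sfp1 and 610, 642 and 582 CPM in wild type, a log2 fold change of -0.74 ± 0.11 (adjusted p = 1.3e-06). At 60 min the means were 235 CPM in delta sfp1 and 276 CPM in wild type, with -0.24 ± 0.11 (adjusted p = 0.074). The effect at 60 min differed from that at 30 min by 0.50 ± 0.16 (adjusted p = 0.029). The IDs place Spar_8.229 on chromosome VIII, as ARO9, and Spar_7.70 on chromosome VII, as ARO8, although the orthology table does not tell them apart.

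Spar_4.790, the ARO80 ortholog, passed the test at 30 min and not at log phase or 60 min. At log phase it averaged 51.3 ± 5.56 CPM in delta sfp1 and 42.6 ± 5.36 CPM in wild type (SD, n = 3 each), a log2 fold change of 0.26 ± 0.15 (adjusted p = 0.13). That value passed under other settings, at 0.34 with RLE factors, 0.39 without the filter and 0.76 with library size alone. At 60 min the log2 fold change was 0.18 ± 0.29 (adjusted p = 0.63). At 30 min it rose with 1.17 ± 0.35 (adjusted p = 0.0055), with 0, 49.9 and 36.3 CPM in delta sfp1 and 12.1, 20.1 and 20.8 CPM in wild type. The groups overlapped through the shallow library A, which held 0 counts of this gene, and without delta sfp1 library B the value was 0.90 (adjusted p = 0.089). Within wild type Spar_4.790 was lower than at log phase by 1.25 at 30 min and by 0.69 at 60 min (adjusted p = 2.0e-04 and 0.016). There 55.9% and 40.3% of genes were called, and the 30 min values rest on 5, 11 and 10 counts. Within delta sfp1 the values were -0.35 ± 0.24 at 30 min and -0.77 ± 0.21 at 60 min (adjusted p = 0.22 and 0.0021). In that strain 55.8% and 52.6% of genes were called. Log and lag libraries of wild type also differed in mating type, whose part was not tested.

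**Figure D3:**
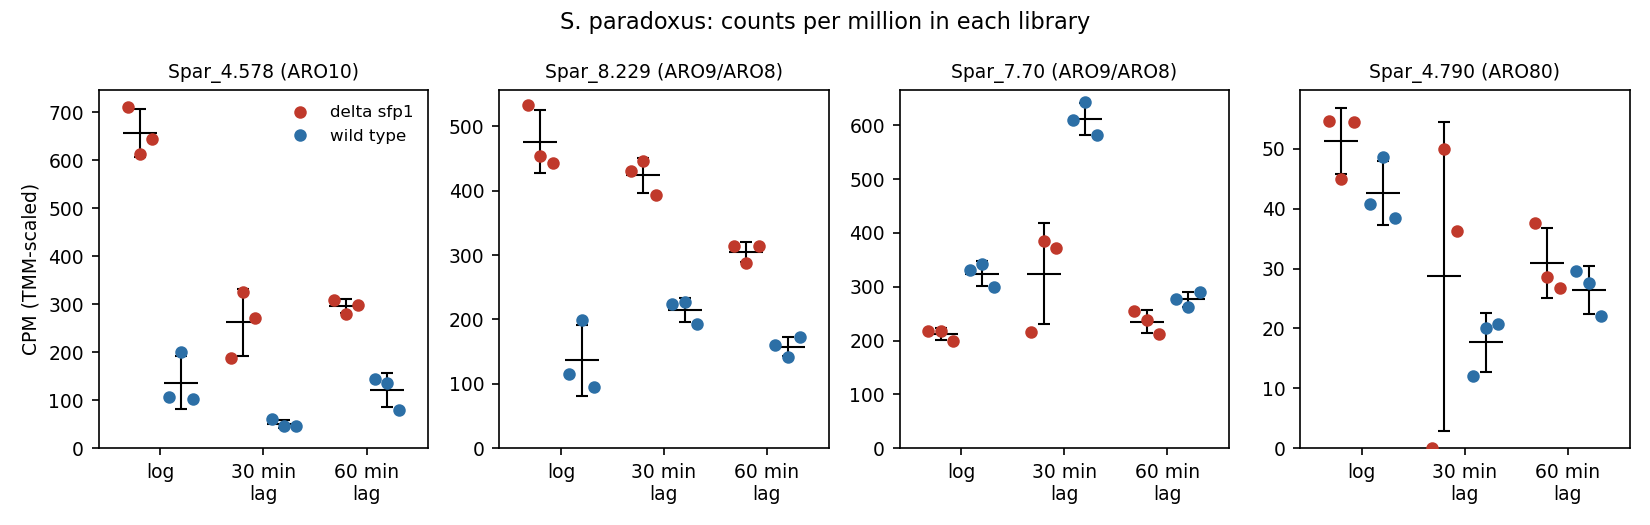
CPM in each S. paradoxus library (points) of the 4 member rows at log phase and 30 and 60 min of lag phase, delta sfp1 left of wild type at each stage, with mean and SD (bars, n = 3). Spar_4.578 and Spar_8.229 stand higher in delta sfp1 at every stage, Spar_7.70 stands lower at log phase and 30 min, and Spar_4.790 overlaps.

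Over the 18 S. paradoxus libraries, Pearson's r of log2 CPM was 0.72 between Spar_4.578 and Spar_8.229, -0.77 between Spar_4.578 and Spar_7.70, and -0.32 between the 2 ARO9/ARO8 genes. These values share libraries and the contrast of strains, and are a description. Of the genes named next, Spar_2.89, Spar_2.399, Spar_2.159 and Spar_2.368 carry chromosome II numbers. That chromosome stood higher as a whole in delta sfp1. The genes most like Spar_4.578 were Spar_2.89 of the ADP/ATP carrier group with PET9 and AAC1 (r = 0.96), Spar_2.399 (TDP1, a DNA repair phosphodiesterase, 0.94), Spar_15.23 (PEX11 of peroxisome proliferation, 0.93), Spar_8.130 (COX6, a subunit of cytochrome c oxidase, 0.93) and Spar_10.227 of the SNX41/SNX4 sorting nexin group (0.92). The genes most like Spar_8.229 were led by Spar_16.156 of the OYE2/OYE3 group of NADPH oxidoreductases (0.93), Spar_2.159 (GAL7 of galactose use, 0.91), Spar_12.7 (0.90), Spar_12.28 (UBI4, polyubiquitin, 0.89) and Spar_2.368 (BEM1 of cell polarity, 0.89). Spar_7.70 was most like Spar_16.97 of the translation elongation factor group with YEF3 (0.93), Spar_13.118 (AMD1, 0.92), Spar_5.276 of the heat shock chaperone group with SSA1 (0.92), Spar_5.369 (BRR2, 0.91) and Spar_10.238 of the RNR4/RNR2 group (0.91). For Spar_4.790 these were Spar_11.297 of the group with YPT52 and VPS21 (0.97), Spar_11.126 of the MYO3/MYO5 group, Spar_8.165 (SAM35), Spar_4.910 (PAD1) and Spar_7.79, the last 4 at 0.96. Spearman's rho of these 5 was 0.744 to 0.845, none of them was among the 5 highest by that measure, and Spar_4.790 had 0 counts in the shallow library A at 30 min.

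In the 9 S. cerevisiae libraries the likeness rests on the 3 deletion libraries against the other 6. Of the 5 genes most like ARO10, all lie on chromosome II: EDE1, LYS2, VBA2, PEP1 and PBP2, with r of 0.996 to 0.999. Those most like ARO9 were VHR1, HSL7, YBL005W-B, ARO10 and EDE1. Those most like ARO80 were YDL218W, GCV2, PUN1, PBY1 and MIS1, with r of 0.976 or more in both sets. Of these, HSL7, YBL005W-B, EDE1, PBY1 and MIS1 also lie on chromosome II.

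In K. lactis the ARO9/ARO8 group held 3 rows, of which 1 rose, 1 fell and 1 was too low to test. The background was the highest of all species, with 66.4% of 4941 genes called, 33.1% higher and 33.3% lower. KLLA0D11110g read 341, 341 and 304 CPM in delta sfp1, against 98.2, 112 and 100.1 CPM in wild type. The groups were far apart, and the log2 fold change was 1.67 ± 0.08 (adjusted p = 4.1e-12). KLLA0F10021g read 340, 331 and 336 CPM in delta sfp1, against 512, 528 and 566 CPM in wild type, a log2 fold change of -0.67 ± 0.07 (adjusted p = 7.3e-08).

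KLLA0A04906g had 8, 5 and 8 counts in delta sfp1 and 9, 6 and 8 counts in wild type. KLLA0A01804g, the ARO80 ortholog, averaged 48.9 ± 6.75 CPM in delta sfp1 and 50.0 ± 2.27 CPM in wild type (SD, n = 3 each), with a log2 fold change of -0.04 ± 0.11 (adjusted p = 0.74). The ARO10 ortholog KLLA0E02662g was not analysed in the sequencing data, for want of a row in the count table used. In the authors' deposited table its array ratios were 1.37, 2.19 and 2.13 at times 30, 60 and 90, above 93.9% to 98.5% of features. There KLLA0D11110g had 0.34, 0.94 and 1.15, and KLLA0F10021g had -0.19, 0.52 and 1.14, so the opposite movement seen at log phase was not present in the authors' deposited table at the later times. KLLA0A04906g, which was near the floor of the log phase libraries, had 1.99, 1.83 and 1.22 in the authors' deposited table, and ARO80 had 0.88, 0.71 and 0.42.

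In C. glabrata the ARO10 ortholog CAGL0A03102g rose in both deletions, by small amounts. It read 128, 114 and 124 CPM in delta CAGL0D00682g, 127, 124 and 104 CPM in delta CAGL0M09955g, and 81.4, 96.0 and 97.7 CPM in wild type. Every deletion library was above every wild type library. The log2 fold changes were 0.40 ± 0.09 (adjusted p = 0.0066) and 0.36 ± 0.09 (adjusted p = 5.5e-04). These backgrounds differ widely: 0.567% of 4760 genes were called in delta CAGL0D00682g, with 0.378% higher and 0.189% lower, and 33.6% in delta CAGL0M09955g, with 15% higher and 18.6% lower. In delta CAGL0D00682g the ortholog was 1 of 18 genes that rose, a call that ended without wild type library A (0.33, adjusted p = 0.15) and without deletion library A (0.37, adjusted p = 0.052). The deletions share their wild type libraries.

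The ARO9/ARO8 genes of C. glabrata differed from each other in response. CAGL0G06028g read 195, 180.1 and 190 CPM in delta CAGL0M09955g and 124, 119 and 128 CPM in wild type, a log2 fold change of 0.60 ± 0.07 (adjusted p = 3.4e-10). In delta CAGL0D00682g it read 139, 138 and 152 CPM, with 0.21 ± 0.08 (adjusted p = 0.28). Set against each other, delta CAGL0D00682g was lower than delta CAGL0M09955g by a log2 difference of -0.39 ± 0.07 (adjusted p = 4.6e-06; 29.5% of genes called). CAGL0G01254g did not pass in either strain, with 0.10 ± 0.08 and 0.11 ± 0.08 (adjusted p = 0.73 and 0.31). CAGL0F03025g, the ARO80 ortholog, read between 20.4 and 21.7 CPM in delta CAGL0D00682g, between 19.4 and 20.8 CPM in delta CAGL0M09955g and between 13.9 and 15.9 CPM in wild type. Neither passed, with 0.50 ± 0.18 and 0.44 ± 0.18 (adjusted p = 0.28 and 0.0502). The groups did not overlap, but the share of all genes without overlap was not counted.

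On the arrays the C. glabrata deletions were unlike each other. In the authors' deposited table CAGL0A03102g had -0.54, -0.11 and -0.31 at times 30, 60 and 90 in the columns of delta CAGL0D00682g, and 1.82, 0.50 and 0.51 in those of delta CAGL0M09955g. The sign in delta CAGL0D00682g was thus opposite to that of the log phase libraries. CAGL0G06028g had 0.13, 0.47 and 0.65 in the columns of delta CAGL0M09955g in the authors' deposited table, and between -0.11 and 0.01 in those of delta CAGL0D00682g. CAGL0G01254g, which did not pass at log phase, had 1.13, 0.20 and 0.25 in the columns of delta CAGL0M09955g in the authors' deposited table, above CAGL0G06028g at time 30 and below it later. In those of delta CAGL0D00682g it had 0.22, 0.15 and 0.17 in the authors' deposited table.

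In N. castellii the ARO10 ortholog was almost absent from the log phase libraries. NCAS0A11830 had 2, 2 and 3 counts in delta Scas551.1, 3, 2 and 3 counts in delta Scas719.24 and 5, 4 and 8 counts in wild type, and NCAS0B07220 of the ARO9/ARO8 group had 1 to 8 counts per library; neither was tested. NCAS0E00670, the other gene of that group, fell slightly, reading 158, 167 and 166 CPM in delta Scas551.1, 161, 164 and 166 CPM in delta Scas719.24, and 189, 176 and 202 CPM in wild type. Its log2 fold changes were -0.21 ± 0.08 in both deletions, with adjusted p = 0.044 in delta Scas551.1 and 0.053 in delta Scas719.24, while 41.8% and 26.1% of 5338 genes were called. Of all genes, 21.4% were called higher and 20.4% lower in delta Scas551.1, and 14.8% higher and 11.3% lower in delta Scas719.24. The call in delta Scas551.1 ended in 5 of 6 fits that left out 1 library, under DESeq2 and with library size alone. ARO80, NCAS0F01070, had -0.24 ± 0.15 and -0.15 ± 0.14 (adjusted p = 0.23 and 0.49).

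The N. castellii arrays carry older gene IDs, of which the ARO10 ortholog is Scas_632.6. In the authors' deposited table its ratios were 0.82, 1.42 and 1.40 at times 30, 60 and 90 in delta Scas551.1, above 97.3% to 99.8% of features. In delta Scas719.24 they were 0.67, -2.07 and -2.62, the last 2 below all but 0.488% and 0.192% of features. The 2 deletions thus stood on opposite sides at times 60 and 90. Scas_697.11, of the ARO9/ARO8 group, had 2.30, 2.09 and 2.05 in delta Scas719.24 and 0.34, -0.42 and -0.46 in delta Scas551.1 in the authors' deposited table. In delta Scas719.24 these stood above 95.9%, 95.4% and 96.6% of features, and the 0.67 of Scas_632.6 above 71.7%. Ratios of that deletion spread more widely, so their sizes are not alike between the deletions. Scas_712.48 lay between -0.75 and -0.05 and ARO80, Scas_717.33, between -0.63 and 0.04 over both deletions.

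**Figure D4:**
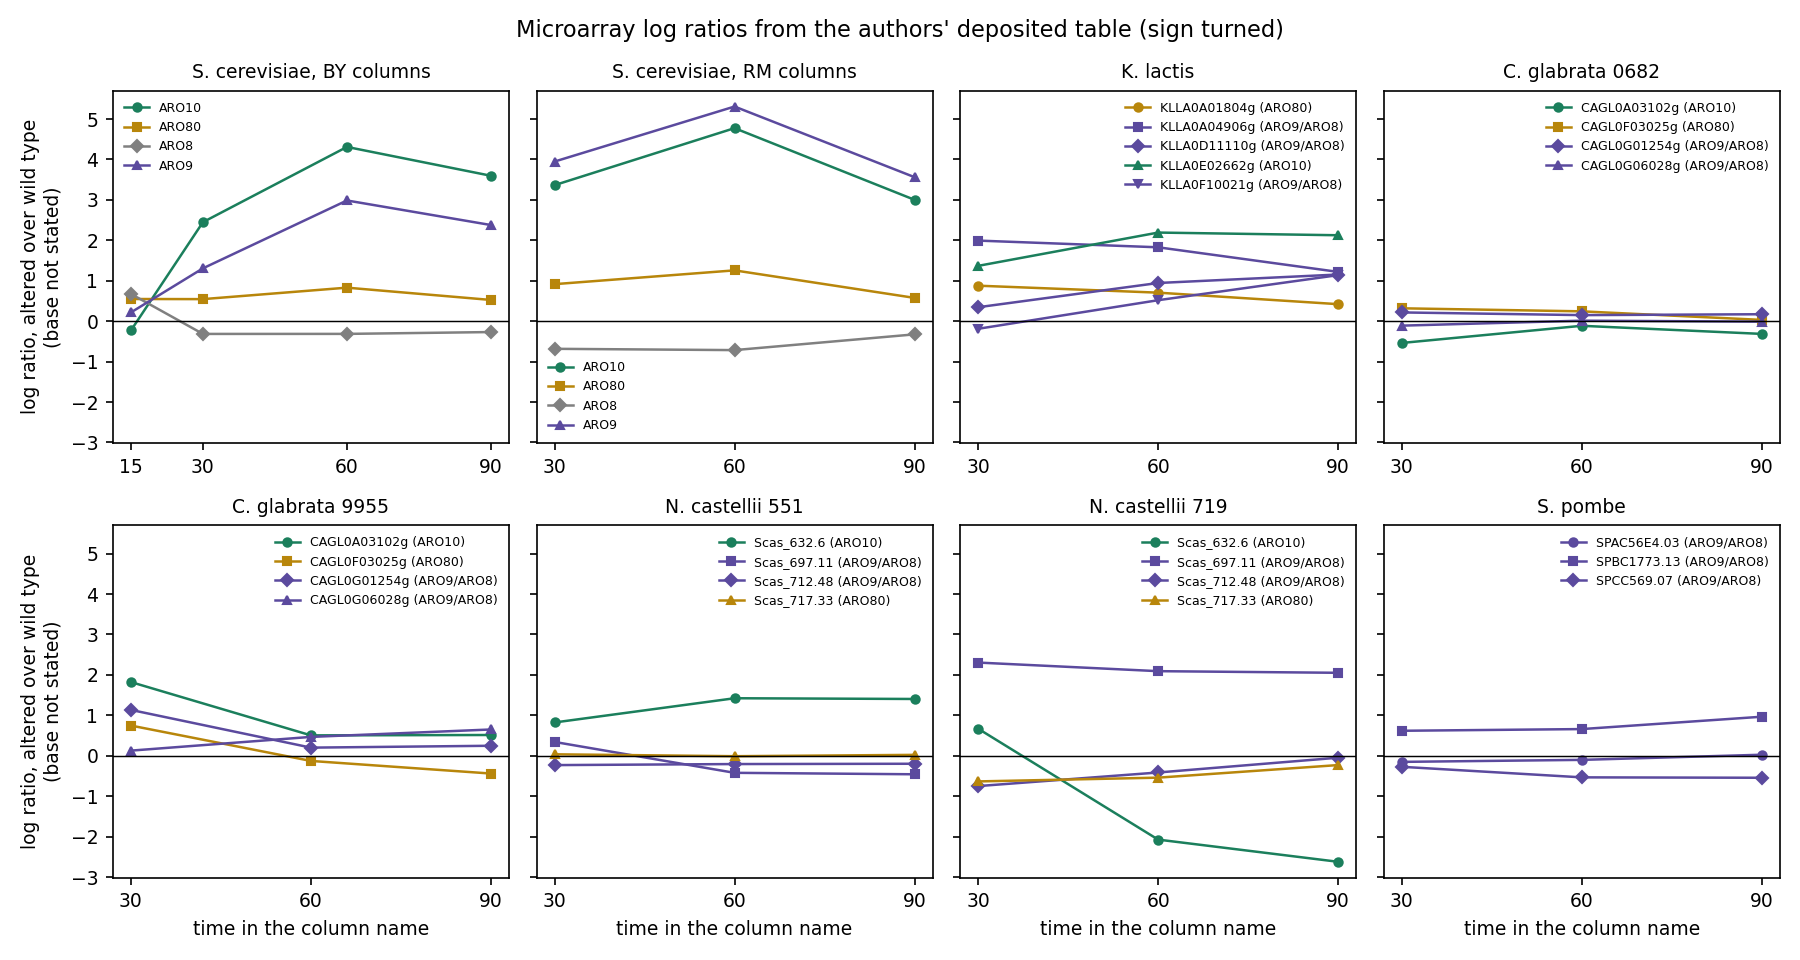
Microarray log ratios (altered strain over wild type, log base not stated) from the authors' deposited table against the time in the column name, 1 panel per strain and 1 line per gene, coloured by orthogroup. ARO10 and ARO9 peak at time 60 in both S. cerevisiae panels, at up to 5.31, and the ARO10 ortholog of N. castellii reaches 1.42 in one deletion and -2.62 in the other.

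S. pombe, a fission yeast far from the others, has 3 rows in the ARO9/ARO8 group and none in the other orthogroups. SPCC569.07 read 12.1, 15.9 and 16.6 CPM in the libraries labelled deletion and 31.1, 29.7 and 24.0 CPM in wild type, a log2 fold change of -0.95 ± 0.23 (adjusted p = 0.028); 10% of 5296 genes were called with 6.82% lower and 3.19% higher. The call ended in 4 of 6 fits that left out 1 library. SPAC56E4.03, with means of 264 and 293 CPM in the libraries labelled deletion and wild type, and SPBC1773.13, with 15 and 19.7 CPM, did not pass (adjusted p = 0.34 and 0.55). On the arrays, whose sfp1 ratios lay far below wild type, the authors' deposited table has SPBC1773.13 at 0.62, 0.66 and 0.97 and SPCC569.07 at -0.27, -0.53 and -0.54.

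**Figure D5:**
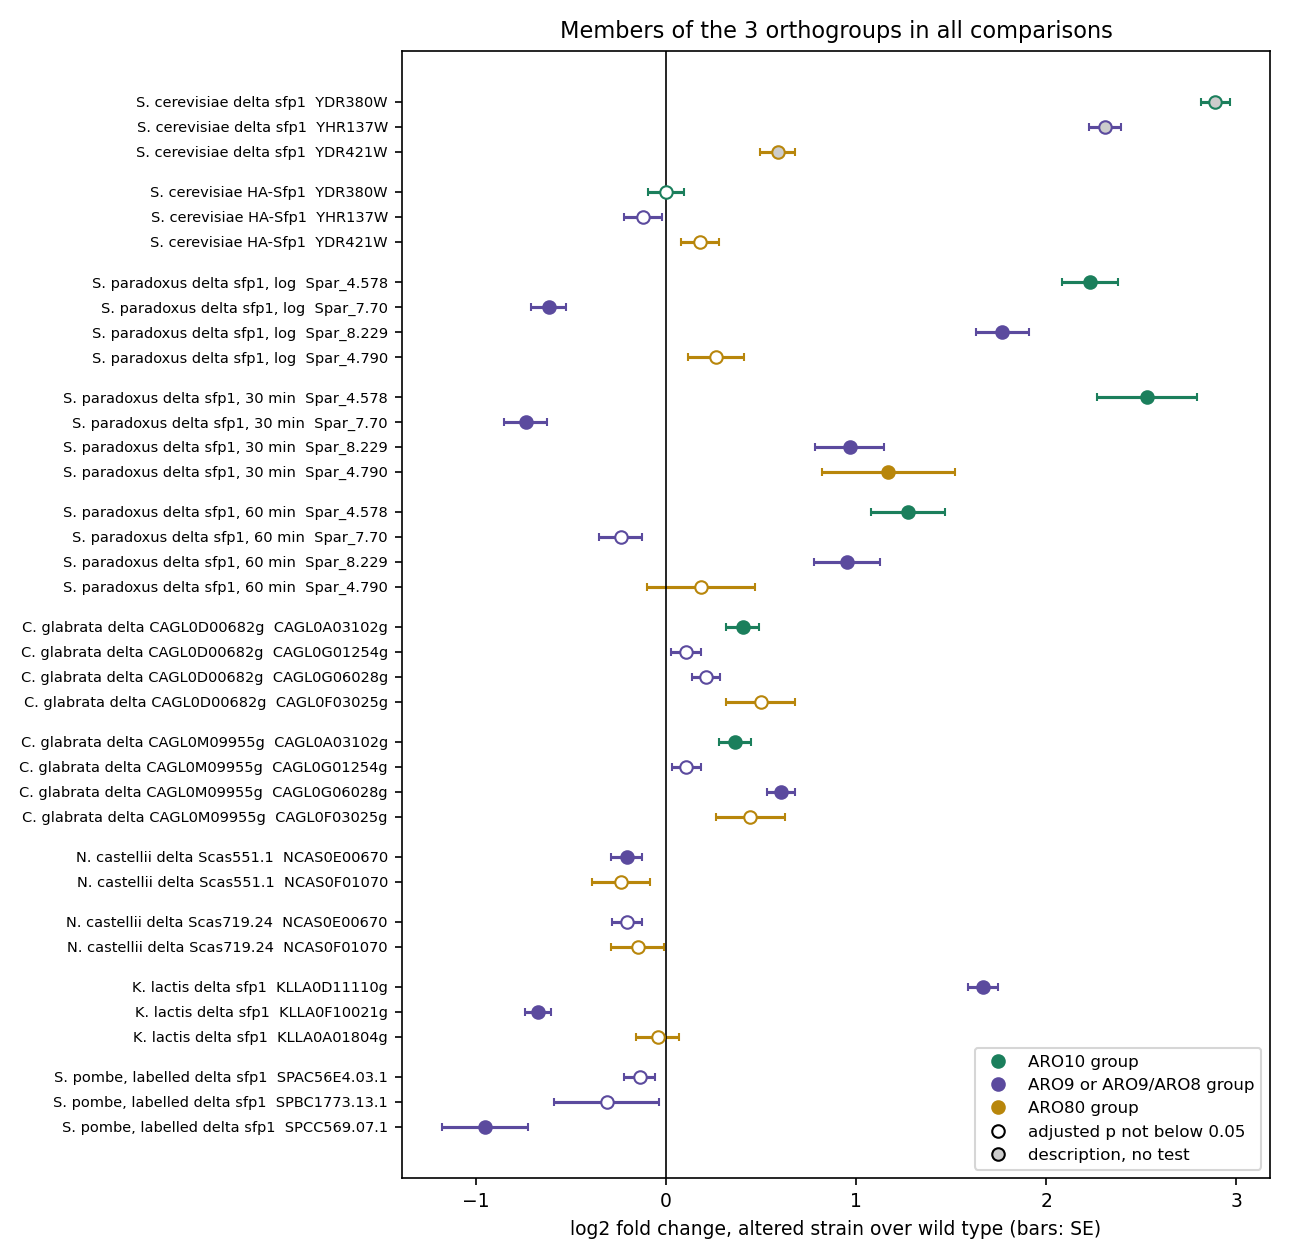
Log2 fold changes of the 19 tested member rows in the 11 comparisons of an altered strain with wild type (points, with SE as bars), coloured by orthogroup; open points did not pass an adjusted p of 0.05 and grey points are descriptive. Within the ARO9/ARO8 group, 1 gene lies right of zero and another left of it in S. paradoxus at log phase (1.77 and -0.62) and in K. lactis (1.67 and -0.67).

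The genes around the members were described with 5 lists of S. cerevisiae genes carried to the other species through their orthogroups, with member rows left out. Outside S. cerevisiae a row entered every list that held any gene of its orthogroup. The lists there overlap and hold genes beyond those listed. Spar_11.330 and Spar_15.567, of a broad group of amino acid permeases, counted under both uptake and nitrogen control. Counts of these 2 lists are therefore not separate. In synthesis of aromatic amino acids, genes called lower outnumbered those called higher in the deletions of both Saccharomyces species, K. lactis and N. castellii. The same held in delta CAGL0M09955g of C. glabrata. None passed in delta CAGL0D00682g, and in the S. pombe libraries labelled deletion 1 of 11 passed, near the 6.82% of all genes called lower. In S. cerevisiae 8 of 12 genes were called lower and 2 higher, against 26% of all genes each way, with a list median of -0.33 beside 0.03 over all genes. ARO1, the pentafunctional shikimate pathway enzyme, had -0.85 ± 0.07 and ARO7, chorismate mutase, -0.74 ± 0.11, whereas TYR1 (0.79 ± 0.09), which lies on chromosome II, and TRP1 (0.88 ± 0.10) were higher. Without chromosome II genes the counts were 7 lower and 1 higher of 10.

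In S. paradoxus 8, 6 and 6 of 11 synthesis genes fell at log phase, 30 min and 60 min and 2, 1 and 1 rose. Of all genes, 32.6%, 24.6% and 25% were called lower and 24.8%, 28.3% and 25.7% higher. The list medians were -0.74, -1.27 and -0.50 beside -0.05, 0.13 and 0.04 over all genes. Spar_2.426 of the ARO3/ARO4 group, which opens the shikimate pathway, had -1.78 ± 0.09, -3.66 ± 0.16 and -3.01 ± 0.13 at these stages, although it carries a chromosome II number. ARO1 (Spar_4.436) had -1.04 ± 0.08, -1.71 ± 0.13 and -1.25 ± 0.11. In K. lactis all 5 listed genes fell, against 33.3% of all genes. Among them were KLLA0F18744g of the ARO3/ARO4 group (-1.67 ± 0.08) and ARO1, KLLA0F19712g (-1.33 ± 0.07). In C. glabrata 7 of 12 fell and 1 rose in delta CAGL0M09955g, against 18.6% and 15% of all genes, and none passed in delta CAGL0D00682g. In N. castellii 7 fell and 1 rose of 13 in delta Scas551.1, against 20.4% and 21.4% of all genes, and 4 fell in delta Scas719.24, against 11.3%. In S. pombe 1 of 11 fell, SPAP8A3.07c of the ARO3/ARO4 group (-0.75 ± 0.07), against 6.82% of all genes, and the list median was 0.07.

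Of 7 aminotransferase and decarboxylase genes listed in S. cerevisiae, ARO8 included, 2 were called higher and 2 lower, near the 26% of all genes called each way. Beside ARO8, which was lower, BAT1, the mitochondrial branched-chain aminotransferase, had -1.34 ± 0.06, its cytosolic relative BAT2 0.54 ± 0.08, and the minor pyruvate decarboxylase gene PDC6 2.38 ± 0.55 at 5.61 CPM in delta sfp1 and 1.03 CPM in wild type. In S. paradoxus 0, 2 and 0 of 5 listed genes rose and 3, 1 and 2 fell, beside the all-gene shares given above for these stages. Spar_8.317 of the BAT1/BAT2 group fell at all 3 stages (-1.32 ± 0.09, -2.13 ± 0.14 and -0.52 ± 0.12). In K. lactis 1 of 2 listed genes fell, against 33.3% of all genes. It was KLLA0A10307g of the BAT1/BAT2 group, which fell by 1.07 (SE 0.06). In N. castellii 1 of 5 listed genes rose and 3 fell in delta Scas551.1, against 21.4% and 20.4% of all genes. In delta Scas719.24 1 rose and 1 fell, against 14.8% and 11.3%. The gene that rose in both deletions was the decarboxylase gene NCAS0A14240, with 2.13 ± 0.10 and 1.68 ± 0.10.

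The next list joins alcohol and aldehyde dehydrogenases, acetyltransferases and the transporters PDR12 and ESBP6. In S. cerevisiae 7 of its 17 genes were called higher and 6 lower, against 26% of all genes each way; the cinnamyl alcohol dehydrogenase gene ADH7 had 2.19 ± 0.28, ADH2 1.05 ± 0.19, the mitochondrial aldehyde dehydrogenase gene ALD5 -1.21 ± 0.08 and ADH1 -0.82 ± 0.11. In S. paradoxus 11, 12 and 12 of 25 rose and 7, 3 and 4 fell, against 24.8%, 28.3% and 25.7% of all genes called higher and 32.6%, 24.6% and 25% lower. Spar_15.346 had 2.24 ± 0.11 at 60 min, with means of 3054 and 646 CPM in delta sfp1 and wild type. Its orthogroup joins PDR12 with PDR5, PDR10 and other transporter genes and does not tell them apart. The ID places Spar_15.346 on chromosome XV, and it is not given the name PDR12. In K. lactis 13 of 22 rose and 8 fell, against 33.1% and 33.3% of all genes, between KLLA0D09999g of the ALD2/ALD3 group (2.31 ± 0.11) and the alcohol dehydrogenase gene KLLA0B09064g (-6.20 ± 0.10).

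Nitrogen control genes called higher outnumbered those called lower in the deletions of both Saccharomyces species, in K. lactis and in delta Scas551.1. That was not so in C. glabrata or S. pombe, and in delta Scas719.24 the counts stood near the shares of all genes. Of 10 uptake genes in S. cerevisiae 7 were called higher and 1 lower, against 26% of all genes each way. Among those higher were TAT1, a tyrosine and tryptophan permease on chromosome II (1.22 ± 0.06), the glutamine permease GNP1 (0.83 ± 0.06) and the general amino acid permease GAP1 (0.82 ± 0.15). Without chromosome II genes the counts were 5 and 1 of 8. Of 25 nitrogen control genes 17 were called higher and 2 lower, against 26% of all genes each way, with a median of 0.56; PUT1, proline oxidase, had 3.53 ± 0.23 and the allantoin permease DAL4 1.82 ± 0.32. In S. paradoxus 18, 23 and 17 of 43 nitrogen control genes rose and 9, 8 and 6 fell, beside the all-gene shares given above for these stages. PUT2 (Spar_8.111) had 2.04 ± 0.11 at log phase, and the glutamate dehydrogenase GDH2 (Spar_4.49) 3.0 ± 0.13 at 30 min and 2.76 ± 0.13 at 60 min.

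In K. lactis 27 of 43 nitrogen control genes rose and 7 fell, against 33.1% and 33.3% of all genes. The list was led by UGA2, succinate semialdehyde dehydrogenase (KLLA0F12628g, 5.59 ± 0.12), while the arginase gene CAR1 (KLLA0F00704g) fell by 1.59 (SE 0.07). In delta CAGL0D00682g of C. glabrata 1 gene of this list passed, CAR1 (CAGL0J07062g, -0.46 ± 0.07). In delta CAGL0M09955g 5 of 36 rose and 11 fell, against 15% and 18.6% of all genes. In delta Scas551.1 20 of 44 rose and 3 fell, against 21.4% and 20.4% of all genes. In delta Scas719.24 8 rose and 5 fell, near the 14.8% and 11.3% of all genes. In the S. pombe libraries labelled deletion 3 of 47 rose and 9 fell, against 3.19% and 6.82% of all genes. The uptake list had 5, 10 and 5 of 16 genes higher and 5, 2 and 0 lower in S. paradoxus at log phase, 30 min and 60 min. Of all genes, 24.8%, 28.3% and 25.7% were called higher and 32.6%, 24.6% and 25% lower, so log phase was near these shares. Uptake genes were 9 higher and 3 lower of 15 in K. lactis, and 5 and 0 of 16 in delta Scas551.1. They were 1 higher and 4 lower of 14 in delta CAGL0M09955g, and 0 and 3 of 16 in delta Scas719.24. None passed in delta CAGL0D00682g, and S. pombe had 1 each way of 10. None of the listed genes passed in the HA-tagged strain.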

How the data were processed

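The submitters' processing notes name RSEM 1.2.11, Bowtie 1, edgeR and the build ASM294v2, without giving their roles. The authors deposited RSEM expected counts per gene (57.1% to 97.4% of values whole per library), log2 ratios from the same libraries, which run wild type over altered strain, and microarray log ratios, treated as a score because their base is not stated; the array sign was turned because the deleted gene was strongly positive. The authors' deposited orthology table assigns genes to orthogroups by number, which is another kind of value.

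Counts were rounded. All groups of a species entered 1 edgeR 4.0.16 quasi-likelihood fit (TMM, filterByExpr, Benjamini-Hochberg over all genes, adjusted p below 0.05; R 4.3.3). SE was taken as the size of the log2 fold change over the root of edgeR's F statistic. The fit was tested on simulated data. DESeq2 1.42.0, other scalings, no filter, single comparisons, a replicate block and leaving out each library were tried. From each list up to 4 genes with the largest passing change and no overlap were named. The share of all genes without overlap was not counted, so overlap or its absence is a description only. Members, lists and tests were chosen with earlier results of these data known. Loci come from RefSeq R64; the build of the S. cerevisiae files is not given in the sources used here. A single S. cerevisiae wild type sample at 60 min of lag phase was not analysed here.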

Additional observations from a re-analysis of the deposited data

Results flagged for a closer look

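In S. paradoxus the deletion effect on Spar_4.578, the ARO10 ortholog, differed between stages by the test of the difference itself: 60 min was below log phase by a log2 difference of -0.96 and below 30 min by -1.26. The effect on Spar_8.229 of the ARO9/ARO8 group differed from log phase by -0.80 at 30 min and -0.82 at 60 min. At log phase delta sfp1 and wild type also differed in mating type, whose part in the differences from log phase was not tested. The effect on Spar_7.70 was less negative at 60 than at 30 min, by 0.50. In C. glabrata CAGL0G06028g was lower in delta CAGL0D00682g than in delta CAGL0M09955g, by -0.39.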

How the results depend on the processing

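Over 36 values of members set against wild type, 209 refits with all libraries kept the result and 17 did not. Of those that left out 1 library, 202 did and 14 did not. A tested value kept its result if its call stayed, so its sign could turn where neither fit passed. Untested values of the S. cerevisiae deletion kept it if they moved by less than the spread between libraries. Under library size alone 3 such values moved further, with their sign kept. Library size alone put the median of all genes at 0.45 in S. paradoxus at log phase and 0.26 in the S. cerevisiae deletion, against -0.05 and 0.03 with TMM, with S. cerevisiae ARO10 then at 3.12, ARO9 at 2.53 and ARO80 at 0.81; Spar_7.70 at log phase at -0.12 and NCAS0E00670 in delta Scas551.1 at -0.032, neither past the threshold; and Spar_4.790 at log phase at 0.76, CAGL0F03025g at 0.60 and CAGL0G01254g at 0.27 in delta CAGL0M09955g, and NCAS0E00670 in delta Scas719.24 at -0.36, all past it. Between these N. castellii deletions NCAS0E00670 turned, at 0.33. RLE factors brought Spar_4.790 at log phase (0.34), Spar_7.70 at 60 min (-0.27) and NCAS0E00670 in delta Scas719.24 (-0.22) past it, no filter Spar_4.790 at log phase (0.39), and the groups alone NCAS0E00670 in delta Scas719.24 (-0.21); DESeq2 put it at -0.22 in delta Scas551.1, not past the threshold. The cause was not tested.

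Leaving out 1 library changed calls for Spar_4.790 at 30 min (0.90 to 1.33), Spar_7.70 at 60 min (-0.30 to -0.17), CAGL0A03102g in delta CAGL0D00682g (0.33 to 0.46), NCAS0E00670 in delta Scas551.1 (-0.27 to -0.16) and delta Scas719.24 (-0.26 to -0.16) and SPCC569.07.1 (-1.06 to -0.81). Deviations of same-lettered libraries from their group means had r between -0.17 and 0.09 over genes. With 3 libraries per group this cannot tell whether the letters pair them. With a replicate block NCAS0E00670 in delta Scas551.1 (-0.21) and SPCC569.07.1 (-0.97) no longer passed. Refits without chromosome II genes, chosen after seeing the data, changed no call. By Spearman's rho, 0 to 3 of the 5 most alike genes of each member stayed among the first 5.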
